A study of Mus musculus with 8 samples.

Results

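The genes of the major histocompatibility complex (MHC) and of antigen presentation were followed in the 2 luminal fractions of the mouse mammary gland. They were taken as every gene of the deposited count table whose symbol begins with H2-, the mouse name of the MHC, together with B2m, Tap1, Tap2, Tapbp, Psmb8, Psmb9, Psmb10, Psme1, Psme2, Nlrc5, Ciita, Cd74, Cd1d1, Mr1 and Erap1. This gave 57 of the 24594 genes in the table, of which 46 had a count in any library and 38 passed the filter on low counts. The rule itself used gene names and no measured value, but it was set with earlier results of these data known.

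RNA came from luminal progenitors (LP) and mature luminal cells, called luminal differentiated in the labels, of wild type C57BL/6J mice without treatment, which were adult by the study's general methods. The labels name EpCAM, CD49f, cKit and CD14 as the surface markers of the sort, the study separates the fractions by high and low c-Kit, and cells were sorted after blood and endothelial cells had been set aside with lineage antibodies, and cDNA was amplified from a very small amount of RNA. There were 4 LP and 4 mature libraries, with 4410049 to 7791593 counts on genes each. The labels do not say whether replicates of a fraction came from separate mice, so p-values measure the spread between these libraries. In bulk RNA of this kind, fewer cells of a type and less RNA per cell cannot be told apart.

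Class I molecules are surface complexes of a polymorphic heavy chain and the shared light chain beta-2-microglobulin, and they show peptides from the inside of nearly every cell to cytotoxic T cells. The peptides are cut by the proteasome, pumped into the endoplasmic reticulum by the Tap1 and Tap2 transporter, trimmed by Erap1 and loaded with the help of tapasin, the product of Tapbp. Class II molecules are made mainly by professional antigen presenting cells, where the invariant chain Cd74 escorts them, and epithelial cells can also make them. Interferons raise both pathways, through the transactivator Nlrc5 for class I and Ciita for class II.

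The fractions were checked against marker lists. The progenitor markers Kit, Cd14, Elf5 and Aldh1a3 summed to 13574 to 20040 CPM (counts divided by the library total after correction by the TMM method of edgeR, on one shared scale) in LP and to 244 to 966 CPM in mature libraries. The mature markers Esr1, Pgr, Foxa1 and Prlr summed to 304 to 991 CPM in LP and to 4190 to 5944 CPM in mature libraries. Kit and Cd14 encode sorting markers, and Cd14 made up most of the progenitor sum, so that sum largely restates the sort. Of the progenitor markers outside the sort, Elf5 was at 217 ± 23.8 CPM in LP and 53.6 ± 39.8 CPM in mature cells, and Aldh1a3 at 638 ± 149 CPM in LP and 247 ± 149 CPM in mature cells (SD, n = 4 each). The fractions overlapped in neither gene, and Elf5 was called (edgeR adjusted p = 0.00524) while Aldh1a3 was not (edgeR adjusted p = 0.0512). Luminal keratins and Epcam summed to 11277 to 12493 CPM in LP and 22792 to 40819 CPM in mature libraries. Basal markers reached at most 16.8 and 47.2 CPM, fibroblast markers 37.9 and 173 CPM, endothelial markers 8.48 and 8.08 CPM and erythroid markers 84.2 and 65.5 CPM, in LP and mature libraries.

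Several H2 genes are near copies of each other, which bears on the heavy chain values below. The stretch that follows lies in the coding sequence of H2-D1 and is found letter for letter in 10 H2 genes. The sequence of a 51-base read from it does not tell which of them it came from. It is shown because it is the length of a read.
H2-D1 and other H2 genes, chr17:35265848-35265898, plus strand of mm10: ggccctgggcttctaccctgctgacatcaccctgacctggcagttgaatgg

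The next pair was picked as a closest match between a coding window found in H2-Q6 alone and one of H2-Q7, so it is not a typical window. Both genes were higher in mature cells. The capital marks the 1 base at which these coding windows differ.
H2-Q6, chr17:35424885-35424935, plus strand: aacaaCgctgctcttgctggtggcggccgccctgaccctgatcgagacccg
H2-Q7, chr17:35439229-35439279, plus strand: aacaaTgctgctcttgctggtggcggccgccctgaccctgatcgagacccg

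In the GENCODE M21 transcripts of the same build, between 0.504% and 52.9% of the 51-base windows of 17 tested class I heavy chain genes also occurred in another gene, with a median of 15.6%. H2-Q8 and H2-Q9 were tested too, but GENCODE M21 has no transcript of these names, so they are not among the 17. H2-Q6 shared 34.3% of its windows and H2-Q7 26.0%, against 12.2% for H2-D1 and 9.22% for H2-K1. Of the 728 coding windows of H2-Q6, 440 were found in H2-Q6 alone, and 216 of these lay within 3 mismatches of H2-Q7. None of the 810 windows of B2m, on chromosome 2, occurred elsewhere. The rows of H2-Q7 and H2-Q9 held the same count in all 8 libraries, so they were read as 1 measurement. How reads that match several genes were counted is not given in the sources used here, and H2-Q6, H2-Q7, H2-Q8 and H2-Q9 are uncertain as single genes for this reason.

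The promoters of B2m, of H2-D1 and H2-K1, which held most class I counts, and of H2-Q6 and H2-Q7, which differed between the fractions, are shown because they hold letters of the boxes that class I genes are known for, and a match describes the letters and not a bound site. Each stretch is the 200 bases before a transcription start in RefSeq (GRCm38.p6), written in the direction of the gene. Capitals mark AANNGAAA, the core that interferon regulatory factors (IRF) bind, GGGNNTTCC for NF-kB, CCAAT of the Y box and TGACG of the X2 box, each on either strand, and neighbouring matches can run together.
B2m, chr2:122147487-122147686, plus strand: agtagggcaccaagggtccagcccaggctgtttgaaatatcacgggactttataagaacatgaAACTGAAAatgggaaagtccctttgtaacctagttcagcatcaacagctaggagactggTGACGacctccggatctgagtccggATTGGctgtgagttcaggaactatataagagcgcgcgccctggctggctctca
H2-D1, chr17:35262894-35263093, plus strand: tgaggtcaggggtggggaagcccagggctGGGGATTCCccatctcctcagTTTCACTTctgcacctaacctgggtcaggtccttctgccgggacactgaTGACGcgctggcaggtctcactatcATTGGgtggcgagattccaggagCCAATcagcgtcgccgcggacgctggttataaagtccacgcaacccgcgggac
H2-K1, chr17:34000334-34000533, minus strand: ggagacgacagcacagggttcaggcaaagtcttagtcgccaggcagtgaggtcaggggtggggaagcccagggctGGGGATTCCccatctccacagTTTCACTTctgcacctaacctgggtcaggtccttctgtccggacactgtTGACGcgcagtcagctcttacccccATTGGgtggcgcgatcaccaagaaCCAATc
H2-Q6, chr17:35424650-35424849, plus strand: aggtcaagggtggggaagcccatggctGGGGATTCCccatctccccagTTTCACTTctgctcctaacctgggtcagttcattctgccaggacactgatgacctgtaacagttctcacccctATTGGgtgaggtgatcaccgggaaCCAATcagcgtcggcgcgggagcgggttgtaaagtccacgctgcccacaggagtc
H2-Q7, chr17:35438955-35439154, plus strand: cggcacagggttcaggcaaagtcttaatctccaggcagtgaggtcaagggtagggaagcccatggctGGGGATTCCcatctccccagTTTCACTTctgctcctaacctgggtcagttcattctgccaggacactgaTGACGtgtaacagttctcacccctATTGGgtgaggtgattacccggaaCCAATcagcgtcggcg

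Across the full 300-base promoters, the IRF core was found in 17 of 25 tested members with a promoter in the table and in all 11 class I genes among them, against 23.9% of 32851 promoters. The NF-kB letters were found in 5 of the 25, namely H2-D1, H2-K1, H2-Q4, H2-Q6 and H2-Q7, against 5.82% of all promoters. CCAAT was found in 18 of the 25 and in 37.4% of all, and TGACG in 10 of the 25 and in 20.8% of all. Members were counted by gene, with a match in any promoter of H2-K1, H2-DMa and Psme2, which have several, while the background counts single promoters. The class I promoters printed above resemble each other, so matches in class I genes are not independent. The promoters of H2-Q6 and H2-Q7, called higher in mature cells, and of H2-D1 and H2-K1, not called, held the same IRF, NF-kB and CCAAT letters, while TGACG was found in H2-Q7, H2-D1 and H2-K1 and not in H2-Q6.

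Genes were compared between the fractions with the quasi-likelihood test of edgeR, and p-values were adjusted by Benjamini-Hochberg over all 12816 genes tested. A log2 fold change is LP minus mature, so a negative value means a higher level in mature cells, and it is given with its standard error (SE). At an adjusted p-value under 0.05, 5 of the 38 tested members differed, or 13.2%, against a background of 24.7% of all tested genes. All 5 were higher in mature cells, where the background was 13.8%, and 0 were higher in LP, where it was 10.9%. With H2-Q7 and H2-Q9 read as 1 measurement, 4 of 37 differed. At an unadjusted p-value under 0.05 there were 9 of 38. Of the 38 log2 fold changes, 30 were negative, with a median of -0.26, while the median over all tested genes was 0.00. Class I heavy chains, which may share reads, gave 17 of the 30, so these values are not independent of each other. With the repeated row counted once, 29 of 37 were negative.

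**Figure D1:**
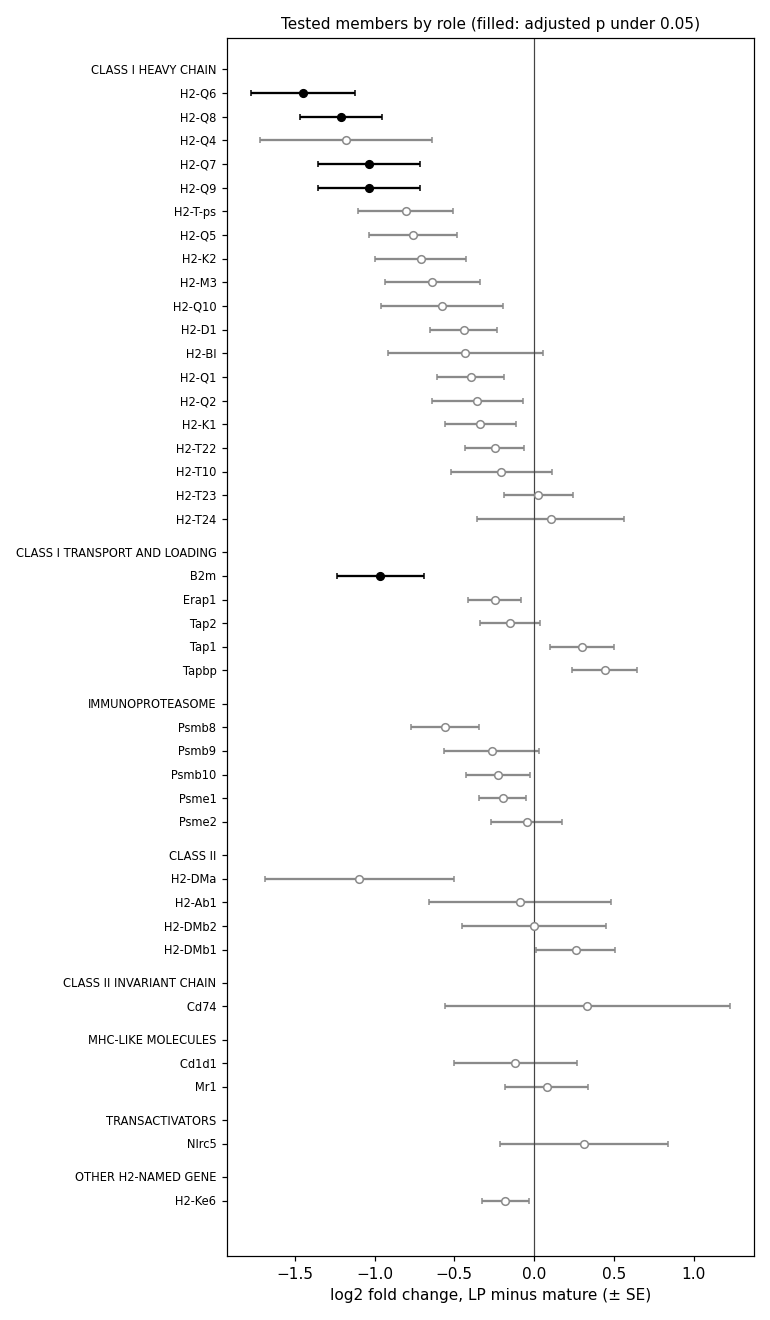
Log2 fold change (LP minus mature, x axis, with SE bars) of the 38 tested members, grouped by role on the y axis. Filled points passed an adjusted p-value of 0.05. H2-Q6, H2-Q8, H2-Q7, H2-Q9 and B2m are filled, and all lie to the left of 0.

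B2m, the shared light chain of class I molecules, was at 925, 820, 1766 and 1336 CPM in LP replicates 1 to 4 and at 1895, 2255, 2158 and 3146 CPM in mature replicates 1 to 4. The lowest mature library lay above the highest LP library. The means were 1211 ± 431 CPM in LP and 2363 ± 543 CPM in mature cells (SD, n = 4 each), a ratio of 1.95, and the log2 fold change was -0.96 (SE 0.273, edgeR adjusted p = 0.0258). This call did not hold without LP replicate 1, LP replicate 2, LP replicate 4 or mature replicate 4. Per kilobase of exon it was the most abundant member in both fractions, at 1409 CPM per kb in LP and 2748 CPM per kb in mature cells.

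H2-Q6, a class I-like heavy chain of the Qa region, was at 27.2, 24.0, 64.6 and 56.0 CPM in LP and at 134, 116, 82.3 and 137 CPM in mature libraries. The fractions did not overlap, and LP replicates 1 and 2 were the lowest. It had the largest change among the members, a log2 fold change of -1.45 (SE 0.325, edgeR adjusted p = 0.0091), with means of 42.9 ± 20.4 CPM in LP and 117 ± 25.1 CPM in mature cells (SD, n = 4 each). The call was lost without both libraries of replicate 1 (edgeR adjusted p = 0.0594) or of replicate 2 (edgeR adjusted p = 0.0508).

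H2-Q8 was at 22.1, 18.4, 37.4 and 32.0 CPM in LP and at 72.8, 58.6, 48.4 and 74.7 CPM in mature libraries. Again no LP library reached a mature one. Its log2 fold change was -1.21 (SE 0.258, edgeR adjusted p = 0.00704), and the call was lost without both libraries of replicate 1 (edgeR adjusted p = 0.0582). How much of its sequence occurs in other H2 genes could not be counted, since GENCODE M21 has no transcript named H2-Q8. RefSeq lists it at chr17:1642938-1675706, far from the interval of the other H2 genes, and GENCODE M21 places no gene of that name. Whether its row is a measurement separate from that of H2-Q6 was not tested, although all counts here treat them as separate genes.

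H2-Q7, whose row equals that of H2-Q9, was at 31.1, 24.0, 66.6 and 51.3 CPM in LP and at 72.1, 72.8, 83.0 and 127 CPM in mature libraries. The fractions were separated by a narrow gap, from 66.6 to 72.1 CPM. The log2 fold change was -1.04 (SE 0.321, edgeR adjusted p = 0.0371), and this call was lost without LP replicate 1, 2 or 4 or without any 1 of the mature libraries. H2-Q7 encodes the Qa-2 antigen, a class I-like molecule held in the membrane by a lipid anchor.

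These 5 genes were also the members whose libraries did not overlap, 13.2% of those tested, and in each the mature libraries were above. Over all tested genes 29.5% did not overlap, 15.5% with mature above and 14.0% with LP above.

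**Figure D2:**
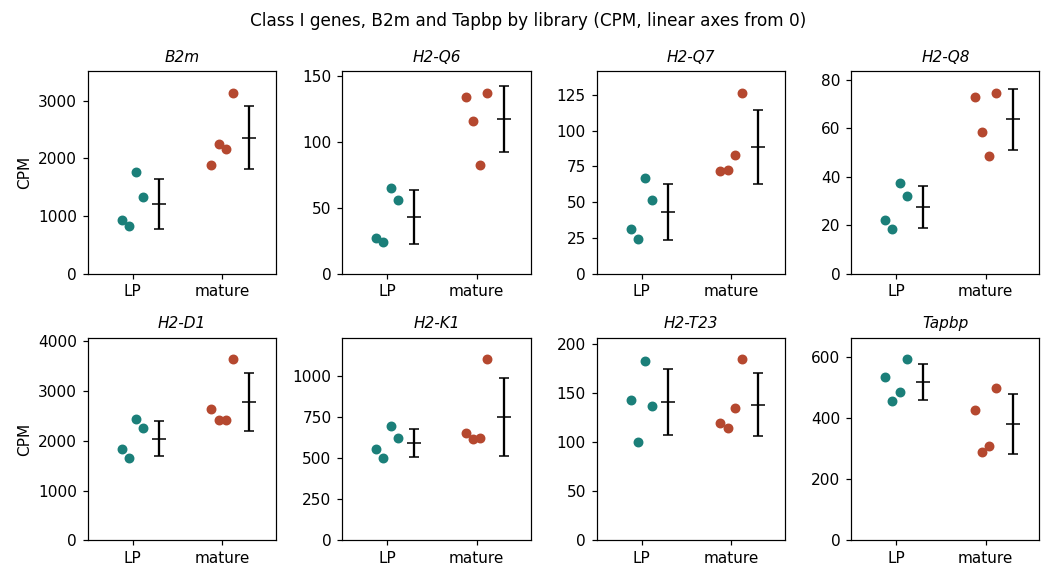
Level in CPM (y axis, linear from 0) of 8 members in each LP and mature library, points ordered from replicate 1 to 4, with the mean and SD beside them. In B2m, H2-Q6, H2-Q7 and H2-Q8 the fractions do not overlap. H2-D1, H2-K1, H2-T23 and Tapbp overlap, and mature replicate 4 is the highest mature library in all 8 panels.

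The classical class I heavy chains, which present peptide to cytotoxic T cells, were not called. H2-D1 was at 1832, 1659, 2427 and 2250 CPM in LP and at 2637, 2418, 2414 and 3635 CPM in mature libraries. LP replicate 3 lay above 2 mature libraries. Between the fractions the log2 fold change was -0.44 (SE 0.212, edgeR adjusted p = 0.155).

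H2-K1 was at 554, 502, 695 and 622 CPM in LP and at 655, 618, 623 and 1102 CPM in mature libraries. The fractions overlapped, and mature replicate 4 stood far above the other mature libraries. On the log2 scale the difference was -0.34 (SE 0.222, edgeR adjusted p = 0.299).

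Of the 31 class I heavy chain genes, 22 had a count and 19 were tested, of which 17 had a negative log2 fold change. With the repeated row counted once, 3 of 18 were called, or 16.7%, below the 24.7% of all tested genes. The largest changes that did not pass were in H2-Q4 at -1.18 (SE 0.540), H2-T-ps at -0.81 (SE 0.298) and H2-Q5 at -0.76 (SE 0.276), with edgeR adjusted p-values of 0.137, 0.0734 and 0.0693. H2-Q5 ranged from 14.1 to 26.9 CPM in LP and from 24.7 to 42.0 CPM in mature libraries. H2-T23, which encodes Qa-1, the ligand of an inhibitory receptor of natural killer cells, had means of 141 and 138 CPM and a log2 fold change of 0.02 (SE 0.217). H2-T22, a ligand of a subset of gamma delta T cells, was at -0.25 and the related H2-T10 at -0.20. H2-T22 and H2-T10 share most of their repeated windows with each other. In RefSeq, H2-T10, H2-Q5, H2-K2 and H2-Bl are annotated as transcribed pseudogenes. H2-M3, which binds formylated peptides, was at -0.64 (SE 0.297, edgeR adjusted p = 0.143).

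The levels of the remaining heavy chains overlapped between the fractions. H2-K2 ranged from 10.4 to 18.6 CPM in LP and from 16.8 to 26.7 CPM in mature libraries, with a log2 fold change of -0.71 (SE 0.286). H2-Q1 ranged from 30.5 to 45.2 CPM in LP and from 39.3 to 63.9 CPM in mature libraries, at -0.40 (SE 0.211). H2-Q2 was at -0.36 (SE 0.288), H2-Q10 at -0.58 (SE 0.382), H2-Bl at -0.43 (SE 0.486) and H2-T24 at 0.10 (SE 0.460). H2-Q10, H2-Bl, H2-Q4 and H2-T24 reached at most 12.7, 3.15, 10.7 and 8.86 CPM, so few counts stand behind them.

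Because reads may move between H2 genes, the class I heavy chains were also summed, with the repeated row counted once, over 30 rows. The sum was 2866, 2548, 3751 and 3398 CPM in LP and 4036, 3712, 3663 and 5676 CPM in mature libraries. LP replicate 3 lay above 2 mature libraries. The mature mean was 1.36 times the LP mean, with a log2 fold change of -0.45 (SE 0.220), and H2-K1 and H2-D1 made up 81.6% to 84.8% of the sum. With the heavy chains summed in this way, B2m was the 1 member left that was called.

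The libraries of a fraction differed among themselves in a shared way. Mature replicate 4 held the highest mature value in 22 of 37 members and in 13 of 18 class I heavy chains, against 25.5% of all tested genes. Mature replicate 3 held the lowest mature value in 21 of the 37 members and in 10 of the 18 heavy chains, against 26.1% of all tested genes. LP replicate 3 held the highest LP value in 11 of the 18 heavy chains, against 28.0% of all tested genes, and LP replicate 2 the lowest in 11 of the 18, against 24.7%. Heavy chains share reads, so they are not independent of each other in this count.

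Of the 5 genes of peptide transport and loading, B2m included, B2m alone was called. Tapbp, tapasin, was at 533, 457, 485 and 592 CPM in LP and at 425, 290, 309 and 497 CPM in mature libraries. Mature replicate 4 reached into the LP range. The log2 fold change was 0.44 (SE 0.202, edgeR adjusted p = 0.137), and without mature replicate 4 it was called higher in LP.

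Tap1 and Tap2, the chains of the peptide transporter, had log2 fold changes of 0.30 (SE 0.200) and -0.15 (SE 0.190), and Erap1, which trims peptides, of -0.25 (SE 0.168). None of the 3 was called. Tap1 ranged from 63.0 to 89.0 CPM in LP and from 43.5 to 71.2 CPM in mature libraries. The start sites of Tap1 and Psmb9 lie 226 bases apart on chromosome 17 on opposite strands, and Psmb9 had a log2 fold change of -0.27 (SE 0.298).

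The immunoproteasome is a form of the proteasome in which Psmb8, Psmb9 and Psmb10 replace the catalytic subunits Psmb5, Psmb6 and Psmb7, and Psme1 and Psme2 form its activator. Psmb8 was at 262, 241, 289 and 330 CPM in LP and at 437, 536, 268 and 412 CPM in mature libraries. Mature replicate 3 fell within the LP range. The log2 fold change was -0.56 (SE 0.214, edgeR adjusted p = 0.0822), and without mature replicate 3 Psmb8 was called. Psmb9 ranged from 26.1 to 50.5 CPM in LP and from 25.8 to 64.9 CPM in mature libraries. Psmb10 was at -0.23 (SE 0.200), Psme1 at -0.20 (SE 0.146) and Psme2 at -0.05 (SE 0.223). All 5 immunoproteasome genes had negative log2 fold changes, from -0.56 to -0.05, and 0 were called.

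The ratio of each immunosubunit to its constitutive counterpart needs no scaling between libraries. On the log2 scale, per kilobase of exon, Psmb8 over Psmb5 was -0.23, -0.43, -0.08 and 0.00 in LP and 0.94, 1.67, 0.21 and 0.53 in mature libraries. No LP value reached a mature value. The difference was -1.02, with a two-sided exact permutation p of 0.0286, the smallest that 4 against 4 libraries can give, and 0.0857 after adjustment over the 3 ratios. Psmb9 over Psmb6 differed by -0.97 (exact permutation p = 0.0857, adjusted 0.0857) and Psmb10 over Psmb7 by -0.49 (exact permutation p = 0.0571, adjusted 0.0857). None passed after adjustment. The constitutive subunits, which are the denominators, were at 0.47 (SE 0.176) for Psmb5, 0.75 (SE 0.171) for Psmb6 and 0.24 (SE 0.157) for Psmb7, and Psmb6 was called higher in LP (edgeR adjusted p = 0.00945). The ratio of Psmb9 to Psmb6 moved more through Psmb6 than through Psmb9.

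**Figure D3:**
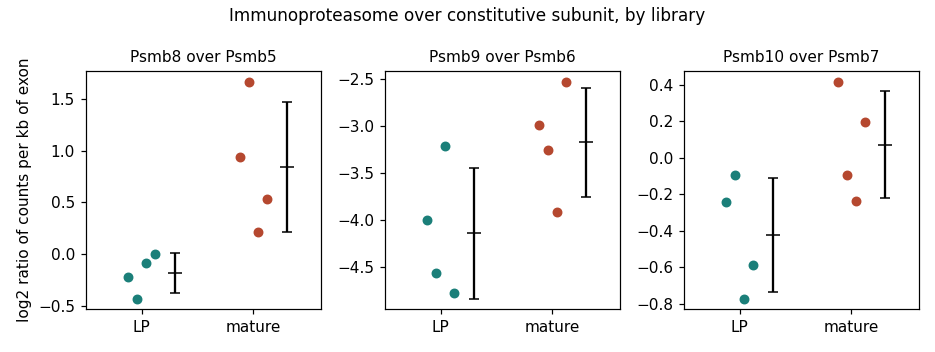
Log2 ratio of counts per kb of exon (y axis, a scale of its own in each panel) of an immunosubunit over its constitutive counterpart in each LP and mature library, with the mean and SD. Psmb8 over Psmb5 is the 1 ratio without overlap between LP and mature libraries.

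Class II genes were low. Of the 10 class II genes, 4 were tested and 0 were called, and Cd74 was not called. H2-Ab1, the beta chain of the class II molecule I-A, was at 5.23, 11.6, 42.5 and 46.1 CPM in LP and at 31.9, 31.0, 32.5 and 16.9 CPM in mature libraries. The LP libraries spanned both sides of the mature ones, and the log2 fold change was -0.09 (SE 0.571). H2-Aa, the alpha chain that pairs with it, did not pass the filter and had 0 to 8 counts in LP and 0 to 19 counts in mature libraries.

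Cd74 was at 1.74, 4.46, 23.6 and 10.3 CPM in LP and at 2.95, 12.9, 15.2 and 0.904 CPM in mature libraries. Both fractions varied widely, and replicate 3 was the highest in each. Its log2 fold change was 0.33 (SE 0.891). H2-DMa, a chain of the peptide editor of class II, was at 8.28, 1.15, 7.64 and 3.19 CPM in LP and at 8.02, 8.93, 8.37 and 17.9 CPM in mature libraries, with a log2 fold change of -1.10 (SE 0.594, edgeR adjusted p = 0.207). Its partners H2-DMb1 and H2-DMb2 were at 0.26 and -0.00.

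Ciita, the switch for class II transcription, had 0 counts in every library, and a count of 0 allows up to 3 counts, or 0.416 to 0.788 CPM in a library, for counting error only. Nlrc5 ranged from 5.69 to 7.91 CPM in LP and from 2.31 to 9.98 CPM in mature libraries, with a log2 fold change of 0.31 (SE 0.529). The other members without a count were H2-Ob, H2-M1, H2-M2, H2-M9, H2-M11 and the genes H2-M10.1 and H2-M10.3 to H2-M10.6. The 8 members with counts that were not tested, H2-Aa, H2-Ea, H2-Eb1, H2-Eb2, H2-Oa, H2-M5, H2-M10.2 and H2-T3, reached at most 27 counts in a library.

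Because blood cells carry class II, their markers were examined. Ptprc, the CD45 gene, had counts in 1 LP library, at 0.277 CPM, and 1 mature library, at 0.263 CPM. The 6 leukocyte markers summed to 3.49 to 10.9 CPM in LP and 1.83 to 6.21 CPM in mature libraries, most of it from Cd52. Macrophage markers summed to 5.89 to 7.80 CPM in LP and 4.62 to 9.19 CPM in mature libraries, with Adgre1 in every library and C1qa at 0. Dendritic cell markers summed to at most 0.332 CPM in LP and 1.31 CPM in mature libraries, with Flt3 at 1 to 4 counts in each of the 8 libraries, Itgax and Xcr1 in 1 mature library each and Cd209a and Clec9a at 0. Of the B cell markers Ms4a1 had 1 to 4 counts in each of the 8 libraries, Cd79a had a count in 1 mature library and Cd79b was at 0, and of the T cell markers all but Cd4 were at 0, Cd3e included. Among LP libraries, replicate 3 had the highest Cd74, the lowest leukocyte sum, at 3.49 CPM, and the highest macrophage and dendritic cell sums, at 7.80 and 0.332 CPM. That dendritic cell sum was 2 counts of Flt3, the same count as in LP replicates 1 and 2. Most of that macrophage sum was Csf1r, at 7.47 CPM. The part of these cells in the class II values was not tested.

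**Figure D4:**
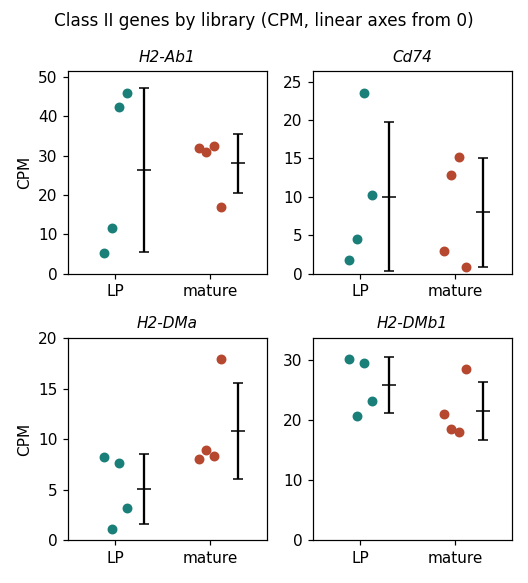
Level in CPM (y axis, linear from 0) of H2-Ab1, Cd74, H2-DMa and H2-DMb1 in each LP and mature library, points ordered from replicate 1 to 4, with the mean and SD beside them. The fractions overlap in all 4 genes, and H2-Ab1 in LP runs from 5.23 to 46.1 CPM.

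The MHC-like molecules Cd1d1, which presents lipids to natural killer T cells, and Mr1, which presents vitamin B metabolites, had log2 fold changes of -0.12 (SE 0.387) and 0.08 (SE 0.262). H2-Ke6, which carries an H2 name by its position but encodes a hydroxysteroid dehydrogenase, was at -0.18 (SE 0.148). None of the 3 was called.

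Genes that act on the same pathways, outside the members, were described from a list of 58. Of these 47 were tested and 16 were called, or 34.0%, with 8 higher in each fraction, beside the background of 24.7%, and their median log2 fold change was 0.18. Among 11 regulators of interferon signalling, 7 were called, 6 of them higher in LP and Irf1 higher in mature cells.

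Ifngr1, a chain of the interferon gamma receptor, was at 309, 275, 414 and 569 CPM in LP and at 71.6, 70.1, 76.7 and 95.2 CPM in mature libraries. It was higher in every LP library than in any mature library, with a log2 fold change of 2.32 (SE 0.243, edgeR adjusted p = 0.000298). Ifngr2, the other chain of the receptor, was at 97.6, 109, 171 and 112 CPM in LP and at 45.0, 68.0, 76.2 and 78.2 CPM in mature libraries. These did not overlap either, and the log2 fold change was 0.87 (SE 0.231, edgeR adjusted p = 0.0193).

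Irf1, a transcription factor that binds the IRF core of class I promoters, went the other way. It was at 47.3, 34.1, 44.7 and 38.7 CPM in LP and at 176, 189, 73.6 and 98.8 CPM in mature libraries. The fractions did not overlap, and the log2 fold change was -1.70 (SE 0.293, edgeR adjusted p = 0.00248).

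Further genes higher in mature cells were Tnfsf9, a ligand that costimulates T cells, at -2.39 (SE 0.433), Lgmn, a protease of the endosome, at -1.46 (SE 0.204), and Fcgrt, a class I-like receptor for IgG that also pairs with B2m, at -1.30 (SE 0.232), with edgeR adjusted p-values of 0.00324, 0.000884 and 0.00297. Hspa5, a chaperone of the endoplasmic reticulum, was at -1.41 (SE 0.464, edgeR adjusted p = 0.0479), with overlap between the fractions. The subunits of NF-Y, the factor that binds CCAAT, went different ways. Nfyb was at -1.09 (SE 0.234, edgeR adjusted p = 0.00742), Nfya at 1.08 (SE 0.275, edgeR adjusted p = 0.016) and Nfyc at 0.32 (SE 0.257, not called).

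**Figure D5:**
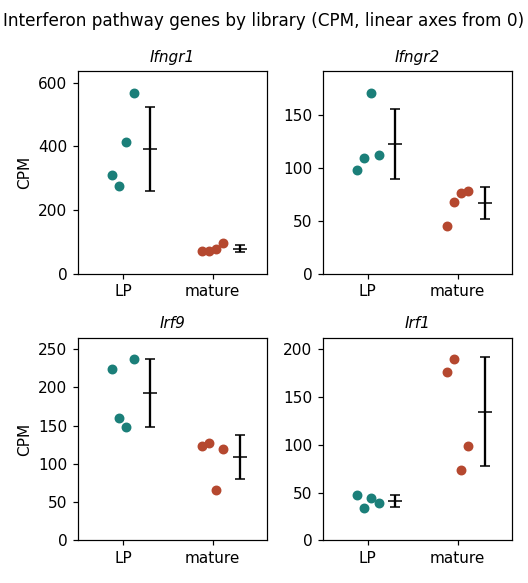
Level in CPM (y axis, linear from 0) of Ifngr1, Ifngr2, Irf9 and Irf1 in each LP and mature library, points ordered from replicate 1 to 4, with the mean and SD beside them. Ifngr1, Ifngr2 and Irf9 are higher in all LP libraries, and Irf1 in all mature libraries.

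Most members lie together on chromosome 17, so the other genes of that interval, chr17:33974659-37483554 of mm10, were counted beside them. Of 151 such genes 85 were tested and 16 were called, or 18.8%, of which mature cells were higher in 12 and LP in 4. Over all tested genes these shares were 24.7%, with 13.8% higher in mature cells and 10.9% in LP. The interval had a median log2 fold change of -0.25. Its genes Gm7030, Gm11127 and Gm10499 hold the H2-D1 stretch shown above, so their reads are not separate from those of members. They were at -0.45, -0.35 and -0.52, and none was called. The 3 genes of the interval with the largest changes were the heat shock genes Hspa1l, Hspa1a and Hspa1b at -4.48, -4.31 and -4.38. All were higher in mature cells, and they were named after their values were seen. Hspa1a was at 80.7, 61.7, 288 and 97.4 CPM in LP and at 584, 346, 8253 and 1309 CPM in mature libraries. Mature replicate 3 stood far above the others, and without it the log2 fold changes of Hspa1l, Hspa1a and Hspa1b were -2.61, -2.48 and -2.58. Hspa1l overlapped between the fractions. Whether their level has a part in the member values was not tested.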

How the data were processed

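Total RNA was extracted, and 4 LP and 4 mature libraries were sequenced, with 51-base reads per the study's methods. For library preparation the study's general methods name poly(A) selection or, for few cells, a low-input kit. The authors trimmed reads with cutadapt 4.2 and aligned them with Bowtie2 2.3.5.1, per the submitters' processing notes, to mm10, and deposited raw, unnormalized counts per Entrez Gene ID. The counting program and its annotation are not given in the sources used here. Symbols came from RefSeq (24570 of 24594 IDs matched).

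Counts were analysed with edgeR 4.0.16 in R 4.3.3 (TMM, filterByExpr by fraction, quasi-likelihood F-test, Benjamini-Hochberg over 12816 genes). SE is the absolute log2 fold change divided by the square root of F. Ratios used the two-sided exact permutation test of scipy. The fits were tested on simulated data. Alternatives were RLE and upper-quartile factors, DESeq2 1.42.0, the likelihood ratio test, other filters, a replicate block, a summed class I row and libraries left out. Counting H2-Q9 once was added after seeing the data. The members and lists were chosen with earlier results of these data known. Every tested member was to be named, those the results turn on with all library values and the others with ranges or fold changes, and of the other pathway genes those called, at most 8 with values. Sequence windows came from GENCODE M21 transcripts and promoters from RefSeq (GRCm38.p6). Some genes of the lists are not reported here.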

Additional observations from a re-analysis of the deposited data

Results flagged for a closer look

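In 6 of 82 groups of 4 libraries, 1 library lay far from the other 3, its gap to the nearest taking more of the range than Dixon's limit for 4 samples allows, where chance gives about 1 in 20 groups, or 4.1. In mature replicate 4, H2-K1 was at 1102 CPM with the nearest mature library at 655 CPM, H2-DMa at 17.93 CPM with the nearest at 8.93 CPM, H2-Ab1 at 16.88 CPM with the nearest at 31.0 CPM, and H2-T24 at 3.767 CPM with the nearest at 5.62 CPM. In LP replicate 1, H2-DMb2 was at 4.792 CPM with the nearest at 3.88 CPM. In LP replicate 3, Psme2 was at 31.71 CPM with the nearest at 39.7 CPM. The causes were not tested.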

How the results depend on the processing

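The 5 members called stayed 5 with RLE factors, upper-quartile factors, DESeq2 and at least 10 counts in every library, and were 6 with the likelihood ratio test (H2-Q5 added), 3 without a filter on low counts (H2-Q7 and H2-Q9 lost) and 1 with class I heavy chains summed into 1 row. In each of these settings all calls were higher in mature cells. With libraries or same-numbered pairs left out, the members called ranged from 0 to 6, those higher in mature cells from 0 to 6 and those higher in LP from 0 to 1. There were 0 without replicate 1, and 1 (H2-Q8) without replicate 2. Without LP replicate 1 or LP replicate 2 there were 2, and without LP replicate 4, mature replicate 1, mature replicate 2 or mature replicate 4 there were 3. Without LP replicate 4, and without both libraries of replicate 4, the 3 were H2-Q6, H2-Q8 and H2-T-ps, and without mature replicate 4 they were H2-Q6, H2-Q8 and Tapbp, so 2 of the 5 remained. No called member changed sign in any of these fits. With libraries or pairs left out, the other pathway genes called ranged from 8 to 16, higher in LP 4 to 9 and higher in mature cells 4 to 7. In the same fits those of the interval ranged from 8 to 16, higher in LP 1 to 4 and higher in mature cells 6 to 12, and 2 were higher in LP under the strict filter of 10 counts per library. With all libraries in other fits, the other pathway genes called were 14 to 17 and those of the interval 12 to 18. With libraries left out, the summed class I log2 fold change ranged from -0.61 to -0.25, the latter without mature replicate 4.

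Same-numbered LP and mature libraries also share a leading number in their labels, whose meaning is not given. Deviations from the fraction means correlated at 0.113, 0.0618, 0.148 and 0.0844 within numbers and at -0.156 to 0.0779 between different numbers. For each LP library, the mature library of the same number gave the highest correlation. The labels do not state a pairing, so the main fit used no block. With the replicate block 6 members were called, all higher in mature cells, with H2-Q5 added, and the class I log2 fold change was -0.44. Depth limits the class II genes, most of which had few counts.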
